A study of Mus musculus with 4 samples.

Results

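The genes described here are 34 genes for voltage-gated sodium, calcium and potassium channels, out of 21938 protein-coding genes of GENCODE release M21 (mm10) on chromosomes 1 to 19, X and Y. They were chosen by name, as pore-forming or accessory subunits of these channels, and all 34 were found in the annotation. For each gene the ATAC-seq peaks within its body and 10 kb on each side were collected, and the promoter, 3 kb to either side of the transcription start site (TSS), was kept apart from the other sites. ATAC-seq reads open chromatin from the places where a transposase can insert into DNA. The libraries came from 2 SMC lines and 2 non-SMC lines, 1 library per line. SMC lines are NCAM hi CD44 lo/- cells and non-SMC lines NCAM lo CD44 hi cells that were isolated by FACS from lung tumors of the *RP* mouse, whose *Rb1*L/L and *Trp53*L/L alleles make it a model of small cell lung cancer (SCLC) after treatment with Ad-Cre. All 4 lines are untreated, carry the same targeted alleles and have a mixed genetic background of C57Bl/6, Balb-c and S129, so no line stands for normal lung or for cells with intact *Rb1* and *Trp53*. Line pairs below join the SMC and non-SMC lines to which the labels give the same number.

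Voltage-gated channels open when the membrane potential changes. Sodium channels carry the upstroke of the action potential, potassium channels restore the resting potential, and calcium channels turn the electrical signal into calcium entry that drives transmitter or hormone release, contraction and gene expression. Each channel has a pore-forming alpha subunit, and accessory beta or alpha2delta subunits set how much channel reaches the membrane and how it gates. Neuroendocrine cells, the cell type that SCLC resembles, are electrically excitable and use such channels to secrete.

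The 4 lists held between 91057 and 153954 peaks on the chromosomes used, and the lowest local background, which scales with depth, was 0.456 and 1.54 reads in SMC lines 1 and 2, and 1.49 and 0.639 reads in non-SMC lines 1 and 2. Many peaks are small, since the lowest pileup at a summit was 3 reads in SMC line 1 and non-SMC line 2 and 5 reads in the others. Strong peaks, a name used below for a -log10 q of 5 or more, numbered 13062 and 26312 in SMC lines 1 and 2 and 43984 and 25103 in non-SMC lines 1 and 2. As a check of the labels, the promoter of the neuroendocrine gene *Chga* had peaks in both SMC lines but not in the non-SMC lines, whereas *Ncam1*, which was used in the sort, and *Syp* held promoter peaks in all 4 lines. The promoters of *Insm1* and *Neurod1*, also neuroendocrine genes, did not divide the lines by type: *Insm1* lacked a peak in non-SMC line 2 alone and *Neurod1* in SMC line 1 alone. The promoter of *Cd44*, the other sort marker, held no peak in SMC line 1, 2 peaks in SMC line 2 and 1 in each non-SMC line. With strong peaks alone, that promoter held 1 in each non-SMC line and none in the SMC lines. *Chga* still held strong peaks in the SMC lines only and *Ncam1* in all 4 lines. *Insm1*, *Neurod1* and *Syp* held a strong promoter peak in SMC line 2 alone. Among 5 markers of other cells of the lung, the promoters of *Ptprc* and *Pecam1* (leukocytes, endothelium) held no peak in either SMC line, whereas *Pecam1* held one in both non-SMC lines and *Ptprc* in non-SMC line 1, that of *Scgb1a1* (club cells) held none in any line, that of *Sftpc* held 1 peak in SMC line 1 alone, and that of *Col1a1* held peaks in all 4 lines. With 2 lines against 2, the smallest two-sided exact permutation p is 0.333, so no difference in a single count can pass that test at 0.05, no other test was run, and counts are set beside the same counts over all genes. Nothing in the labels ties a line to a separate animal, so the spread between lines may be smaller than that between tumors. ATAC-seq on bulk cells cannot tell a site that is open in few cells from a site that is weakly open in all.

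Promoters of the channel genes held a peak more often in the SMC lines. A promoter peak was present at 26 and 27 of the 34 genes in SMC lines 1 and 2, and at 16 and 20 in non-SMC lines 1 and 2. The groups did not overlap, with a mean of 26.5 ± 0.707 (SD, n = 2) promoters for the SMC lines, against 18 ± 2.83 (SD, n = 2) for the non-SMC lines, and the SMC line was higher by 10 in line pair 1 and by 7 in line pair 2. As a share of the 34 genes these counts are 76.5% and 79.4% in SMC and 47.1% and 58.8% in non-SMC, whereas over all genes the share was 62.2% and 69.3% in SMC and 64.6% and 64.9% in non-SMC. With all peaks and this promoter, the channel genes thus lay above all genes in both SMC lines and below them in both non-SMC lines. The order against all genes depended on the setting: in SMC line 2 the share was 61.8% beside 62.6% with equal numbers of top peaks and 55.9% beside 60.8% with a promoter of 2 kb (1 kb to either side), and around the TSS of every transcript the non-SMC lines were also above all genes, at 70.6% and 82.4% beside 69.1% and 70.2%. By gene, 15 of 34 (44.1%) had a promoter peak in more SMC than non-SMC lines, beside 14.3% of all genes, and 2 (5.88%), *Scn2b* and *Kcna1*, had one in more non-SMC than SMC lines, beside 12.8%. This count, added after the data had been seen, stayed above its background under each of 5 alternatives, with the smallest gap for strong peaks alone (6 genes, 17.6% beside 8.37%), and the TSS of every transcript left 9 genes (26.5% beside 12.4%). The opposite count rose to 4 genes (11.8%) with strong peaks or scaled depth, beside 22% and 18.2%.

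These promoter peaks were mostly weak. Among the channel promoters with a peak, the highest peak stood at a median percentile of fold enrichment of 66.1 and 63.7 in the lists of SMC lines 1 and 2, beside 82.6 and 86.2 for all promoters with a peak, and at 32.3 and 59.6 in non-SMC lines 1 and 2, beside 79.5 and 82.9. A percentile of at least 90 was reached by 3 channel promoters in SMC line 1, by 4 in SMC line 2 and by none in either non-SMC line. These are 11.5% and 14.8% of the channel promoters with a peak in SMC, beside 32.9% and 38.8% of all promoters with a peak, and for the non-SMC lines the share over all genes was 24.2% and 32.1%. When strong peaks alone were counted, the channel promoters with a peak were 4 and 9 in SMC and 6 and 3 in non-SMC, so the groups overlapped, and the shares (11.8%, 26.5%, 17.6% and 8.82%) were below those of all genes (27.7%, 41%, 49.5% and 36.4%) in all 4 lines. When every library was scaled to the depth of the shallowest, they were 13 and 4 in SMC and 3 and 4 in non-SMC, and the shares (38.2%, 11.8%, 8.82% and 11.8%) were again below those of all genes (44.7%, 24.6%, 38.1% and 39.6%). Thus the groups were apart with all peaks counted, overlapped with strong peaks and met at 4 with scaled depth.

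**Figure D1:**
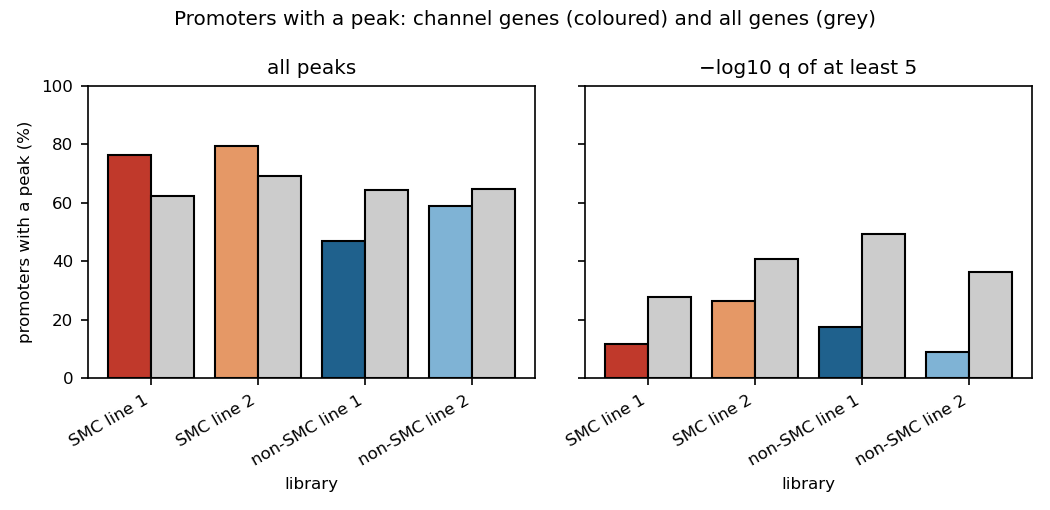
Percent of promoters with at least 1 peak (y axis) in each library (x axis), for the 34 channel genes (coloured bars) and all 21938 genes (grey bars), with all peaks on the left and strong peaks on the right. On the left the channel genes stand above all genes in both SMC lines and below them in both non-SMC lines, and on the right they stand below all genes in all 4 lines.

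Promoters were sorted by the lines that held a peak. An SMC-only promoter has peaks in both SMC lines but none in the non-SMC lines, which was the case for 4 channel genes (11.8%), *Scn1a*, *Scn3a*, *Scn9a* and *Kcna2*, beside 3.08% of all genes. No channel gene had a non-SMC-only promoter, beside 2.45% of all genes. The promoters of 11 channel genes (32.4%; *Scn4a*, *Scn8a*, *Cacna1b*, *Cacna1g*, *Cacnb1* to *Cacnb4*, *Cacna2d1*, *Kcnd3* and *Kcnh2*) held a peak in all 4 lines, beside 48.7%, and 2 (5.88%), *Scn11a* and *Cacna1d*, held none in any line, beside 19.2%. The other 17 promoters held a peak in 1, 2 or 3 lines in another arrangement. With strong peaks alone, 4 channel promoters were SMC-only (*Scn1a*, *Scn9a*, *Scn3b* and *Kcnd2*), beside 1.63% of all genes, and 2 (*Cacna1g* and *Cacnb3*) were non-SMC-only, beside 5.3%. *Scn1a* and *Scn9a* are in both sets of 4. With equal numbers of top peaks, 5 were SMC-only (*Scn1a*, *Scn9a*, *Scn3b*, *Kcnd2* and *Kcnd3*), beside 3.54% of all genes. With scaled depth, 3 were SMC-only (*Scn9a*, *Cacna1b* and *Kcnc1*), beside 1.87%, and 1 (*Cacnb3*) was non-SMC-only, beside 3.99%. With a promoter of 2 kb, *Scn3a* and *Scn9a* alone were SMC-only (5.88%, beside 3.17%). The same 2 were SMC-only around the TSS of every transcript, beside 2.52%. No other gene has a TSS in any of the 34 promoters.

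**Figure D2:**
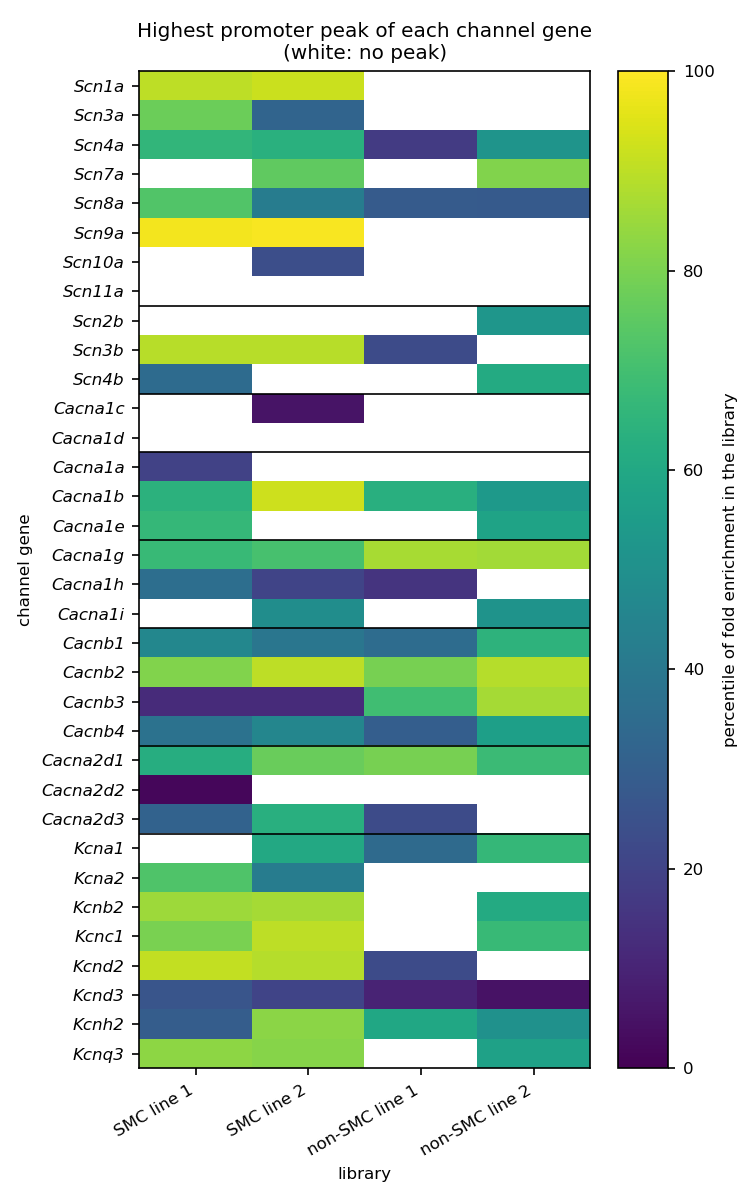
Percentile of fold enrichment of the highest promoter peak (colour scale) for each of the 34 channel genes (rows, grouped by subunit type between black lines) in each library (columns), white where no peak was listed. *Scn9a* has the highest values, 98.3 and 99, in the SMC lines and none in the non-SMC lines.

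Sodium channel alpha subunits form the pore of the channel. Of the 8 measured, 5 and 7 had a promoter peak in SMC lines 1 and 2, and 2 and 3 in non-SMC lines 1 and 2. Over all genes the shares were 62.2% and 69.3% in SMC and 64.6% and 64.9% in non-SMC, so SMC line 1 was close to all genes. Of the 4 SMC-only promoters, 3 belong to this family. *Scn9a*, a sodium channel best known from pain-sensing neurons, had the strongest promoter peak of all 34 genes. The gene (ENSMUSG00000075316.11) lies at chr2:66480080-66634962 on the minus strand, between *Scn1a* and *Scn7a*. In SMC line 1 its peak had a fold enrichment of 10.8 over the local background of that library, a pileup of 19 reads and a -log10 q of 15.7. In SMC line 2 the fold enrichment was 12.4, the pileup 45 reads and the -log10 q 34.6. The summits lay 142 and 162 bases downstream of the TSS, and the non-SMC lists held no peak within 3 kb of that TSS. *Scn9a* was the one gene of the 34 whose promoter was SMC-only with all peaks, with strong peaks, with equal numbers of top peaks per library, with scaled depth and with a 2 kb promoter. At *Scn1a*, a brain sodium channel, the highest promoter peaks of the SMC lines lay 2404 and 2503 bases upstream of the TSS, with pileups of 9 and 20 reads and -log10 q of 6.36 and 10.6. They lay outside a promoter of 2 kb, so *Scn1a* was not SMC-only there. *Scn3a* and *Kcna2* were SMC-only with weak peaks at different places in the SMC lines, 166 and 637 bases downstream of the TSS at *Scn3a* (6 reads in each) and 783 and 2551 bases downstream at *Kcna2* (6 and 7 reads). Neither had a strong promoter peak in any line.

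Among the other sodium channel alpha subunits, *Scn4a*, the skeletal muscle channel, and *Scn8a*, a channel of the axon initial segment, had promoter peaks in all 4 lines, with percentiles between 17.5 and 65.7 and between 28.4 and 73. *Scn7a* had one in SMC line 2 and one in non-SMC line 2, and *Scn10a*, a sensory neuron channel, in SMC line 2 alone. The beta subunits, single-pass proteins that bind the pore, differed among themselves. At *Scn3b* the SMC lines held strong peaks over the TSS, with 10 and 16 reads and percentiles of 89.3 and 89.4, whereas non-SMC line 1 held a weak peak of 6 reads, 471 bases downstream, and non-SMC line 2 none. *Scn4b* had a promoter peak in SMC line 1 and non-SMC line 2, and *Scn2b* in non-SMC line 2 alone.

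Calcium channel alpha1 subunits come in L-type, neuronal Cav2 and T-type families. At the TSS used here, neither L-type gene had a clear promoter peak. *Cacna1d*, used by endocrine cells, had none in any line, and *Cacna1c*, of heart and smooth muscle, had 1 of 5 reads in SMC line 2. A further *Cacna1c* start in RefSeq lies near a site open in all 4 lines, 87.12 kb downstream of that TSS. This site, counted below among the other sites, held 9 and 31 reads in SMC lines 1 and 2 and 40 and 14 in non-SMC lines 1 and 2. *Cacna1b*, which triggers transmitter release, had promoter peaks in all 4 lines, and that of SMC line 2 stood out with 33 reads and a percentile of 92.5, beside 8 reads in SMC line 1. *Cacna1a* had a promoter peak in SMC line 1 alone and *Cacna1e* in SMC line 1 and non-SMC line 2. Among the T-type genes, which open near rest, *Cacna1g* had promoter peaks in all 4 lines. They were strong in both non-SMC lines, with 37 and 16 reads, and weaker in the SMC lines, with 7 and 14 reads. Reads depend on depth, and with scaled depth this promoter was not non-SMC-only. *Cacna1h* had promoter peaks in 3 lines, with percentiles of 36.2 at most, and *Cacna1i* in SMC line 2 and non-SMC line 2. The 4 beta subunits, which carry alpha1 subunits to the membrane, all had promoter peaks in all 4 lines. *Cacnb3* was higher in the non-SMC lists, with 31 and 23 reads, about 1.5 kb downstream of the TSS. These summits lie inside the RefSeq promoter sequence of a further start of the gene. The highest promoter peaks of the SMC lists had 6 and 10 reads at other positions. With strong peaks alone and with scaled depth this promoter was non-SMC-only. *Cacnb2* was close to even, with percentiles of 80.9 and 89.8 in SMC and 79.6 and 89 in non-SMC. Of the alpha2delta subunits, extracellular partners of the channel, *Cacna2d1* had a promoter peak in all 4 lines, *Cacna2d3* in 3 and *Cacna2d2* in SMC line 1 alone.

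Potassium channel alpha subunits had a promoter peak at 7 and 8 of 8 genes in SMC lines 1 and 2 and at 4 and 6 in non-SMC lines 1 and 2. The shares over all genes were 62.2% and 69.3% in SMC and 64.6% and 64.9% in non-SMC. The family was thus above all genes in non-SMC line 2 also, and below them in non-SMC line 1 alone. *Kcnd2* (chr6:21215503-21729805, plus strand), an A-type channel of neuronal dendrites, had strong promoter peaks in both SMC lines at almost the same place, 777 and 739 bases upstream of the TSS, with 13 and 19 reads. Its highest promoter peak in non-SMC line 1 had 6 reads, and the list of non-SMC line 2 held none. *Kcnb2*, a delayed rectifier, *Kcnc1*, a channel of fast-spiking neurons, and *Kcnq3*, which carries the M-current, had promoter peaks in both SMC lines and in non-SMC line 2, with percentiles between 79.7 and 90.1 in SMC and between 57.3 and 67.5 in non-SMC line 2. The highest *Kcnc1* peaks of the SMC lines, with 10 and 32 reads, had summits 3127 and 3128 bases upstream, just outside the 6 kb that their edges touch. *Kcna1*, a channel of axons, had promoter peaks in SMC line 2 and both non-SMC lines. *Kcnd3* and *Kcnh2*, cardiac repolarisation channels, had them in all 4 lines, with percentiles of 26.2 or less at *Kcnd3*.

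Outside the promoters, sites open in 1 type only were about as many for either type. The share of SMC-only sites was above that of all genes and the share of non-SMC-only sites below it. Other sites are not all distal, since only the promoter at the TSS of the gene was kept apart. An SMC-only site of *Cacnb4*, 118.2 kb downstream of its TSS, overlaps the RefSeq promoter sequence of a further start of that gene. Joined over the 4 lists, the windows of the channel genes held 1436 other sites, of which 1172 (81.6%) had a peak in 1 line only, beside 77.5% over all genes. SMC-only sites, defined as for promoters, numbered 74 (5.15%), beside 4.26% over all genes. Non-SMC-only sites numbered 79 (5.5%), beside 7.3%, and 11 sites (0.766%) were open in all 4 lines, beside 3.07%. With strong peaks alone, 204 sites were left, 26 (12.7%) SMC-only and 36 (17.6%) non-SMC-only, beside 5.97% and 21.6% over all genes. Peaks of the whole windows numbered 387 and 689 in SMC lines 1 and 2 and 414 and 434 in non-SMC lines 1 and 2. The SMC mean was higher by 114, less than the SD of 151 between lines of a type, and the line pairs went opposite ways, with -27 in pair 1 and 255 in pair 2. The lines of a type shared more sites with each other than with lines of the other type: 11.8% of the sites open in either SMC line were open in both, and 16.2% for the non-SMC lines, beside 4.66% to 6.45% between lines of different types. Over all genes these shares were higher, 15.2% and 23.4% within a type.

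Channel genes are long, with a median of 120.6 kb beside 17.4 kb for all genes, and 21 of the 34 reach 100 kb. The window held more peaks in both SMC lines than in either non-SMC line at 8 genes (23.5%), *Scn3a*, *Scn8a*, *Scn3b*, *Scn4b*, *Cacna1d*, *Cacna1g*, *Kcnc1* and *Kcnd2*, beside 13.6% of all genes with a peak. The opposite held at 3 genes (8.82%), *Cacnb3*, *Kcna1* and *Kcnq3*, beside 14.1%. Among genes of at least 100 kb, the shares were 4 of 21 channel genes (19%) beside 15.9%, and 1 of 21 (4.76%) beside 21.1%. In 11 windows another gene has a TSS, and 3 of the 11 sites open in all 4 lines lay within 116 bases of one, at *Tmem115* downstream of *Cacna2d2*, *Dcp1b* inside *Cacna1c* and *Dcp1a* inside *Cacna1d*. The windows of *Scn2b* and *Scn4b* overlap, so they share peaks. None of the 1924 peaks in the windows had a local background of 5 times the lowest of its library, beside 0.749% of all peaks.

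**Figure D3:**
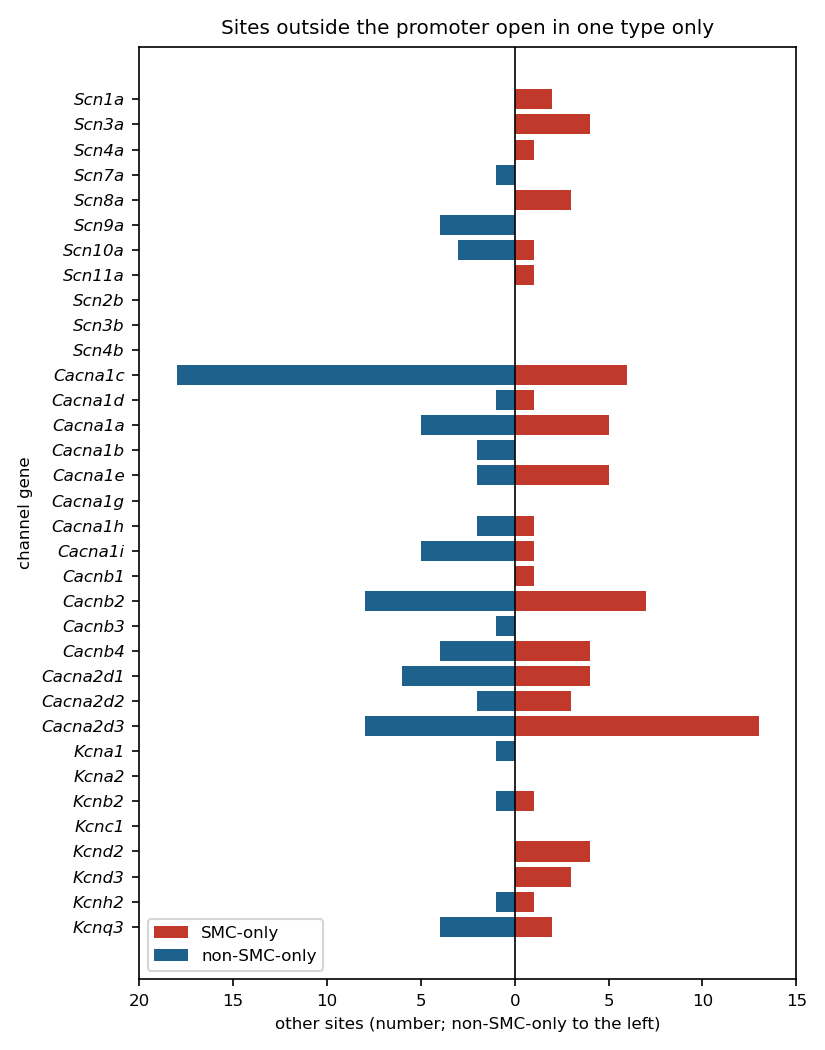
Number of sites outside the promoter (x axis) that were SMC-only (right) or non-SMC-only (left) for each of the 34 channel genes (y axis). *Cacna1c* has the most non-SMC-only sites, 18, and *Cacna2d3* the most SMC-only sites, 13.

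The sites open in 1 type only were spread unevenly: SMC-only sites lay at 23 genes and non-SMC-only sites at 20, and the 3 genes with the most held 26 of the 74 and 34 of the 79. *Cacna1c* alone held 18 of the 79 non-SMC-only sites, between 106.9 and 566.2 kb downstream of its TSS, and 6 of the 74 SMC-only sites. These were 18 and 6 of its 211 other sites, beside 7.3% and 4.26% of the other sites over all genes. The number of sites differs between genes, and the counts by gene were not scaled to it. Its window, which reaches over 609179 bases of gene, held 42 and 90 peaks in SMC lines 1 and 2 and 82 and 54 in non-SMC lines 1 and 2, with 5 and 11 strong peaks in SMC and 31 and 14 in non-SMC. The strong peaks, but not all peaks, were thus more numerous in both non-SMC lines. This held at 26.5% of all genes with a strong peak, and the opposite at 4.18%. *Cacna2d3*, the longest of the 34 genes, held the most SMC-only sites, 13, and 8 non-SMC-only sites, of 127 other sites. Its window peaks numbered 34 and 75 in SMC and 34 and 15 in non-SMC. *Cacnb2* held 7 SMC-only and 8 non-SMC-only sites, *Cacna1a* 5 and 5, *Cacnb4* 4 and 4, and *Cacna2d1* 4 and 6, so these genes had sites of both types along the same gene. *Cacna1e* held 5 SMC-only and 2 non-SMC-only sites, and *Cacna1i* 1 and 5. *Scn3a* and *Kcnd2* held 4 SMC-only and no non-SMC-only site each. At *Scn3a* the window held 13 and 11 peaks in SMC and 3 and 3 in non-SMC, and the best of its 4 sites, 21.2 kb downstream of the TSS, had 9 and 27 reads.

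**Figure D4:**
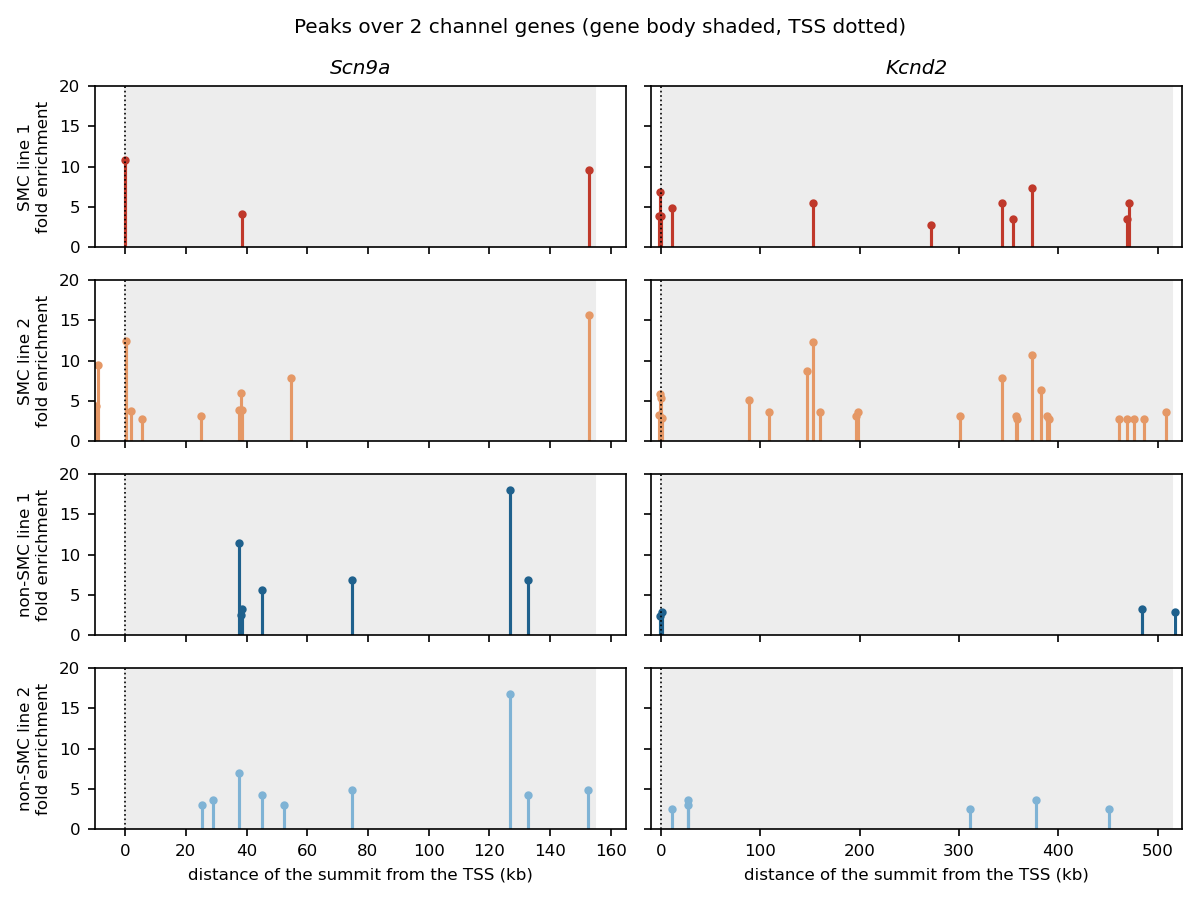
Fold enrichment of each peak (y axis, over the local background of its own library) against the distance of its summit from the TSS in kb (x axis) at *Scn9a* and *Kcnd2*, 1 row per library, with the gene body shaded. At *Scn9a* the SMC lines have the peak at the TSS and the non-SMC lines the peak 126.8 kb downstream, and at *Kcnd2* the higher peaks, up to 12.3, are all in the SMC lines.

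*Scn9a* and *Kcnd2* show the arrangement of such sites along a gene. *Scn9a* had the SMC-only promoter described above and, in its body, 4 non-SMC-only sites, 45.2, 74.8, 126.8 and 132.6 kb downstream of the TSS. The site at 126.8 kb ranked highest of the 79, with 89 and 36 reads in non-SMC lines 1 and 2 and a mean percentile of 99.7, and the SMC lists held no peak there. Thus the TSS was open in the SMC lines and the distant site in the non-SMC lines of the same gene. The TSS of *Scn1a*, 67361 bases away, is nearer to that site than the TSS of *Scn9a*, and which gene the site acts on was not tested. Strong peaks about 37.5 kb downstream of the *Scn9a* TSS had 31 and 12 reads in non-SMC lines 1 and 2. SMC line 2 had a weaker peak of 10 reads close by, at 37.68 kb. A further site, about 152.7 kb downstream, held 16 and 57 reads in the SMC lines and 7 reads in non-SMC line 2, and non-SMC line 1 had no peak there. At *Kcnd2* the window held 11 and 24 peaks in SMC and 4 and 6 in non-SMC, and no peak of the non-SMC lines was strong. Its SMC-only sites lay 152.8, 343.5, 373.3 and 468.5 kb downstream of the TSS, with 7 and 32, 7 and 19, 10 and 26, and 4 and 6 reads in SMC lines 1 and 2.

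Of the 74 SMC-only sites, 63 lay in introns, 7 overlapped exons, 3 lay upstream and 1 downstream of the gene, and 22 were strong in both SMC lines. Of the 79 non-SMC-only sites, 65 lay in introns, 7 overlapped exons, 4 lay upstream and 3 downstream, and 27 were strong in both non-SMC lines. The sequences below are the 151 bases around the summit of the highest peak at the 3 sites of each kind with the highest mean percentile, read from GRCm38 on the strand of the gene. They are shown because the kinds differ in the motifs they hold. Capitals mark matches, on either strand, to AP-1 (TGACTCA), a pair of E-boxes (CAGCTG and CAGATG), TEAD (GGAATG), RUNX (TGTGGT), SOX (ACAATG), NFI (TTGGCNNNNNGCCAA) or the RE1 core (AGCACCNNGGACAG). All 6 stretches are clear of annotated coding sequence. The whole *Scn9a* region (chr2:66507645-66508685) touches an annotated exon, and the other 5 regions lie in introns.
*Cacna2d1*, SMC-only, 187.8 kb downstream of the TSS, chr5:16122369-16122519, plus strand: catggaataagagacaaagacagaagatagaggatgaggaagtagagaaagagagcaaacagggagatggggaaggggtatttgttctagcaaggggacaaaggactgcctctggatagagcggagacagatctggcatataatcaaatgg
*Cacna1e*, SMC-only, 211.4 kb downstream of the TSS, chr1:154673037-154673187, minus strand: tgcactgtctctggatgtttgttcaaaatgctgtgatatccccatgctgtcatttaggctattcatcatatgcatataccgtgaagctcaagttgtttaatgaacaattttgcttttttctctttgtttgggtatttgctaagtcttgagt
*Cacna2d3*, SMC-only, 54.8 kb downstream of the TSS, chr14:29667029-29667179, minus strand: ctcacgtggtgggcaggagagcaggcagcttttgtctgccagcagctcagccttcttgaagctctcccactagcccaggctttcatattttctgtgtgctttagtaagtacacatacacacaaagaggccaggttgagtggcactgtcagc
*Scn9a*, non-SMC-only, 126.8 kb downstream of the TSS, chr2:66508126-66508276, minus strand: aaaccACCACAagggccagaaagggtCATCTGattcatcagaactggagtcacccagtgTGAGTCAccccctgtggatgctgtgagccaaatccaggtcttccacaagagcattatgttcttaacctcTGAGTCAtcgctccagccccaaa
*Cacna2d1*, non-SMC-only, 66.4 kb downstream of the TSS, chr5:16001051-16001201, plus strand: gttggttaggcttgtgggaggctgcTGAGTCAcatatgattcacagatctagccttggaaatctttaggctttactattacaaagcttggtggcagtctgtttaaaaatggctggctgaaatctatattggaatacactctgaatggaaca
*Cacnb2*, non-SMC-only, 30.3 kb downstream of the TSS, chr2:14633312-14633462, plus strand: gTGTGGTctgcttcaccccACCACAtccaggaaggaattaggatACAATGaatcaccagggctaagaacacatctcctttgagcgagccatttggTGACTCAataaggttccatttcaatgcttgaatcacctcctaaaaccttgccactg

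The 3 SMC-only sites held no match in these bases, and each of the 3 non-SMC-only sites held an AP-1 match, with 2 at *Scn9a*. The reads behind them were 32 and 24 at *Cacna2d1*, 14 and 33 at *Cacna1e* and 18 and 24 at *Cacna2d3* in SMC lines 1 and 2. In non-SMC lines 1 and 2 they were 89 and 36 at *Scn9a*, 74 and 36 at *Cacna2d1* and 58 and 24 at *Cacnb2*. *Cacna2d1*, the alpha2delta subunit that binds gabapentin, is in both sets, with the SMC-only and the non-SMC-only site in the introns of the same gene.

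Within 100 bp of the summit, AP-1 was matched at 1 of 74 SMC-only sites (1.35%) and 36 of 79 non-SMC-only sites (45.6%) of the channel genes. Over all genes the shares were 4.04% and 45.9%, so the same contrast between the kinds was seen over all genes. TEAD was matched at 9.46% and 20.3% (all genes 9.21% and 19%) and RUNX at 9.46% and 27.8% (all genes 14.2% and 29.3%). The E-box CAGCTG was matched at 17.6% and 16.5% (all genes 21.2% and 14.4%), the E-box CAGATG at 21.6% and 21.5% (all genes 19.4% and 19.3%) and SOX at 18.9% and 15.2% (all genes 20.4% and 12.1%). NFI was matched at 1 SMC-only site (1.35%) and at no non-SMC-only site (all genes 0.2% and 0.013%). The RE1 core was matched at no site of either kind (all genes 0.0111% and 0.0455%). Both motifs are thus rare at such sites over all genes, and their absence says little about the channel genes. Sites of a gene are not independent, so these shares were not tested.

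**Figure D5:**
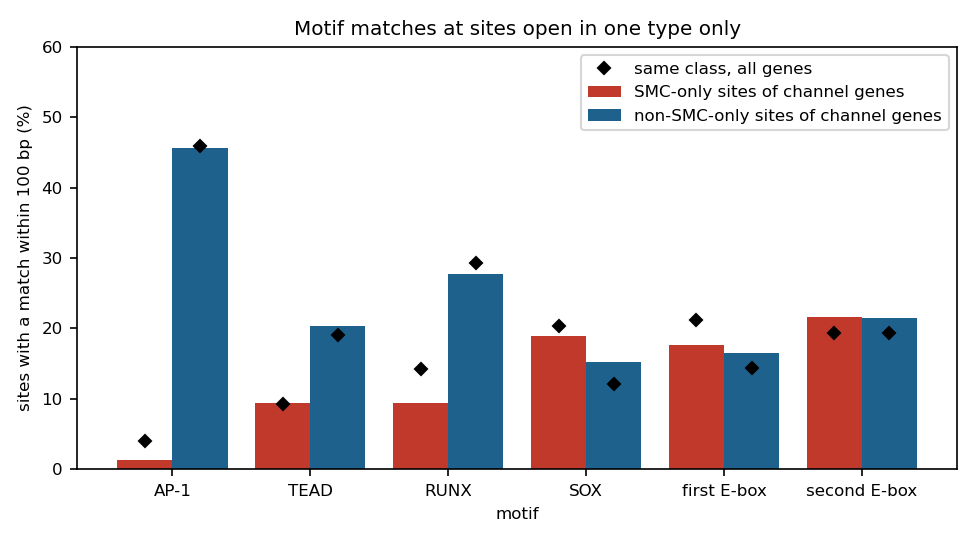
Percent of sites with a motif match within 100 bp of the summit (y axis) for 6 motifs (x axis, the first E-box being CAGCTG and the second CAGATG), at SMC-only and non-SMC-only sites of the channel genes (bars) and of all genes (diamonds). AP-1 stands at 1.35% and 45.6%, close to the diamonds at 4.04% and 45.9%.

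The next sequences are those of the *Scn9a* and *Scn1a* promoters, which were SMC-only both with all peaks and with strong peaks alone. For *Scn9a* the 151 bases just before the TSS are given, which lie inside the peak of both SMC lines, and for *Scn1a* those around the summit of the upstream peak in SMC line 2, with motif matches in capitals as above.
*Scn9a* promoter, chr2:66634963-66635113, minus strand: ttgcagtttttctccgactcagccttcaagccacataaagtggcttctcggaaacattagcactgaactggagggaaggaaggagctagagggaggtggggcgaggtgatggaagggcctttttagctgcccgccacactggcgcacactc
*Scn1a* promoter, chr2:66443268-66443418, minus strand: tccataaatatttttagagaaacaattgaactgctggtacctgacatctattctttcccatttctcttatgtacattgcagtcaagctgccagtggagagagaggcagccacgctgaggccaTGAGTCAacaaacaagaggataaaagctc

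The *Scn9a* bases held none of the 8 motifs, and those of *Scn1a* held 1 AP-1 match. In RefSeq promoter sequences (GRCm38, 250 bases before to 50 after the start) 26 of the 34 genes were matched by symbol, with 35 starts. Their GC content had a median of 64%, beside 52.7% for 32851 starts of all genes, and their ratio of observed to expected CpG a median of 0.74, beside 0.384. AP-1 was found at none of the 35 starts, beside 5.2% of all starts, and CAGCTG at 11 (31.4%) of 10 genes, beside 16.3%. CAGATG was found at 14.3%, beside 17.2%, TEAD at 14.3%, beside 14.7%, RUNX at 11.4%, beside 16.8%, and SOX at 5.71%, beside 12.6%.

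RE1 is the site of REST, a factor that represses neuronal genes, many of them channel genes, in cells that are not neurons. The exact RE1 core occurs 952 times in the chromosomes used, and 22.4% of these matches had a peak of any line within 100 bp. The windows of 9 of the 34 channel genes (26.5%) hold a match, beside 3.29% of all genes and 10% of genes of at least 100 kb, and among the 21 channel genes of that length 6 hold one. There are 11 matches in all, 2 each at *Cacna1b* and *Scn10a* and 1 each at *Kcnh2*, *Cacna1a*, *Scn3b*, *Cacna2d3*, *Kcnq3*, *Cacna1i* and *Cacna1h*. The 4 with a peak within 100 bp are shown as 30 bases on the strand of the motif, with the core in capitals.
*Scn3b*, 0.527 kb downstream of the TSS, in an exon, chr9:40269736-40269765, minus strand: cttggctcAGCACCACGGACAGtagccttc
*Cacna1b*, 1.066 kb downstream of the TSS, in an intron, chr2:24762078-24762107, plus strand: acgccgtcAGCACCACGGACAGctgcctgg
*Kcnh2*, 6.01 kb upstream of the TSS, chr5:24357605-24357634, minus strand: agggtttcAGCACCTCGGACAGaggcagag
*Cacna1i*, 9.42 kb upstream of the TSS, chr15:80277813-80277842, plus strand: tcaggatcAGCACCACGGACAGcgacaggc

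At *Scn3b* the peak was in SMC line 2 and non-SMC line 1, at *Cacna1b* in SMC line 2 and non-SMC line 2, at *Kcnh2* in SMC line 1 and at *Cacna1i* in non-SMC line 2. No RE1 match in the channel windows had a peak in both lines of a type. A match is a description of the letters, and whether REST binds there was not measured.

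The promoters of 45 further channel genes, other potassium channel alpha subunits, silent and auxiliary potassium channel subunits and gamma-like calcium channel subunits, were counted in the same way. Of these, 7 (among them *Kcnh5*, *Kcnh7*, *Dpp10* and *Cacng4*) had SMC-only promoters (15.6%, beside 3.08% of all genes) and 2 (*Kcnab1* and *Cacng7*) non-SMC-only promoters (4.44%, beside 2.45%). A promoter peak was present in all 4 lines at 14 genes (31.1%, beside 48.7%) and in none at 2 (4.44%, beside 19.2%). Of the 1129 other sites in their windows, 56 (4.96%) were SMC-only, beside 4.26% over all genes, and 64 (5.67%) non-SMC-only, beside 7.3%. With strong peaks alone, 6 of the 45 promoters were SMC-only (13.3%, beside 1.63%) and 1 was non-SMC-only (2.22%, beside 5.3%).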

How the data were processed

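ATAC-seq was performed on 4 libraries, 1 per line. The authors aligned paired-end reads to mm10 (Bowtie2 2.3.4), dropped duplicate reads (sambamba) and ran MACS2 2.1.1 on every library by itself. Settings of the peak calling are not given in the sources used here. Each deposited peak list gives a fold enrichment (a ratio of pileup to local background at the summit), a -log10 p-value, a -log10 q-value and a score. The authors deposited this score beside them and it was not used here. These values depend on the depth of the library, so they were used to rank and filter peaks within a list.

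Pileup and background were solved for from fold enrichment and p, using the pseudocount of 1 and the Poisson test of MACS2. This step and the overlaps were tested on simulated data, the latter against bedtools 2.31.1. Between 61 and 85 peaks per library, on other contigs than chromosomes 1 to 19, X and Y, were dropped. GENCODE M21 gave the genes, and the TSS is where the gene starts on its own strand. Peaks of different libraries were called shared with an overlap of at least 1 base. Scaling to the shallowest library divided pileup and background by the ratio of lowest backgrounds, recomputed p and kept peaks with p up to 1e-05. Motifs were matched exactly, on both strands of GRCm38.

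Genes named with values are those with a promoter open in 1 type only, those with the most sites of either kind, and the 3 sites of each kind with the highest mean percentile. The other genes were described by subunit family. The members and lists were chosen with earlier results of these data known. Alternatives were strong peaks alone, equal numbers of top peaks (91057), scaled depth, each library left out, other promoter and window widths, a reciprocal overlap of 50%, and motif windows of 50 or 250 bp. Reads were not analysed here, and their number per library is not given in the sources used here. Software versions were Python 3.11.15, with pandas 2.3.3, numpy 2.4.6, pysam 0.24.0, scipy 1.17.1 and matplotlib 3.10.9. Values of a few genes are not reported here.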

Additional observations from a re-analysis of the deposited data

Results flagged for a closer look

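In 3 sums over the channel genes the SMC line was lower in line pair 1 and higher in line pair 2, and the difference between the pairs was not tested. The peaks in all windows differed between SMC and non-SMC by -27 in line pair 1 and 255 in line pair 2, 282 apart. The strong peaks in the windows differed by -73 and 49, 122 apart. The promoters with a strong peak differed by -2 and 6, 8 apart. SMC line 1 had the lowest background of the 4 libraries (0.456 reads) and the fewest strong peaks (13062), and its part in these differences was not tested.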

How the results depend on the processing

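A value was held to have moved when a count changed by over 1.5 times, the difference in window peaks changed sign or by more than the SD between lines, or a motif share left its counting interval. By these limits 55 of 97 alternatives did not move, and the cause of a move was not tested. Some of the 55 say little about stability. The replicate block below equals the unpaired difference by construction, and the NFI and RE1 core shares rest on 0 or 1 site in every motif window. Strong peaks alone gave 2 non-SMC-only promoters (0 with all peaks), 26 SMC-only and 36 non-SMC-only other sites (74 and 79), 5 genes with more peaks in SMC (8) and a difference in window peaks of -12 (114), the reverse of the value with all peaks. Scaled depth gave 1 non-SMC-only promoter, 32 sites of each kind and a difference in window peaks of 14, a change within the SD between lines. Genes with a promoter peak in more SMC lines fell from 15 to 6 with strong peaks and to 9 with the TSS of every transcript, and the opposite count rose from 2 to 4 with strong peaks and with scaled depth. A promoter of 2 kb, or one around the TSS of every transcript, left 2 SMC-only promoters, and a reciprocal overlap of 50% left 49 SMC-only and 52 non-SMC-only sites. The gene body alone left 4 genes with more peaks in SMC. Without the flank, 1 of the genes with more peaks in non-SMC was also lost, leaving 2. The mean of the differences within line pairs, the replicate block, was 114, as without pairing. It was computed for this difference alone, and no test lies behind it.

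When each library was left out in turn, SMC-only promoters ranged from 6 to 8, non-SMC-only promoters from 0 to 1, SMC-only sites from 81 to 549, non-SMC-only sites from 87 to 340, genes with more peaks in SMC from 10 to 24, genes with more peaks in non-SMC from 3 to 13, and the difference in window peaks from -37 to 265. Fewer lines have to agree then, so most counts rise, and the value of -37 came without SMC line 2. SMC-only sites were 549 without SMC line 1 and 280 without SMC line 2, and non-SMC-only sites 340 and 309 without non-SMC lines 1 and 2. SMC-only promoters were 8 and 7 without non-SMC lines 1 and 2, genes with more peaks in SMC 24 without SMC line 1 and 15 without non-SMC line 2, and genes with more peaks in non-SMC 13 without SMC line 2 and 5 without non-SMC line 2.

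Motif windows of 50 and 250 bp hold fewer and more bases, and AP-1 stayed within its counting interval under both, although its share at SMC-only sites rose from 1.35% to 4.05% with 250 bp. With 50 bp, RUNX (5.41%) and SOX (10.8%) at SMC-only sites also stayed within theirs. For SMC-only sites, 50 bp gave 12.2% for CAGATG and 2.7% for TEAD, and 250 bp gave 29.7% for CAGCTG, 36.5% for CAGATG, 20.3% for TEAD, 35.1% for RUNX and 37.8% for SOX. For non-SMC-only sites, 50 bp gave 5.06% for CAGCTG, 11.4% for CAGATG, 13.9% for RUNX and 7.59% for SOX, and 250 bp gave 36.7%, 34.2%, 55.7% and 27.8%, with 31.6% for TEAD.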
